A study of Monodelphis domestica and Mus musculus with 26 samples.

Results

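The genes described here are 10 regulators of spermatogonial stem cells, taken by name: GDNF, GFRA1, RET, ZBTB16, SALL4, ETV5, ID4, NANOS2, NANOS3 and LIN28A. All 10 were found among the 32532 features of the mouse single-cell matrices. In opossum 9 were found, both among the 32251 single-cell features and in the bulk tables; no opossum feature matched the name NANOS3. Testes were profiled cell by cell, with 3′ libraries made in droplets (Chromium kit), in 3 libraries from adult C57BL6/J mice of 8 to 16 weeks and 3 libraries from adult gray short-tailed opossums (Monodelphis domestica). Bulk RNA sequencing covered 20 opossum testis libraries, 2 of 1 month, 4 of 2 months, 4 of 3 months, 3 of 4 months and 7 of adults. All testes had been dissociated with collagenase and trypsin, and no group carried an engineered allele or a treatment per the labels. Of the bulk libraries 16 were polyA-selected; 3 of the 4 libraries of 2 months (replicates 2 to 4) and adult replicate 2 were rRNA-depleted. The labels do not say whether libraries of a group came from separate animals, so p-values measure the spread between these libraries, which may be technical.

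Spermatogonial stem cells are the germ cells that both renew themselves and give rise to differentiating spermatogonia, spermatocytes, spermatids and sperm. In the mouse, GDNF is a growth factor secreted by the somatic cells around them; it binds the co-receptor GFRA1, which acts with the receptor tyrosine kinase RET, and ETV5 is a transcription factor downstream of that signal. ZBTB16 (PLZF) and SALL4 are zinc-finger transcription factors of undifferentiated spermatogonia, ID4 is an inhibitor of basic helix-loop-helix factors that marks stem cells in the mouse, NANOS2 and NANOS3 are RNA-binding proteins of early germ cells, and LIN28A is an RNA-binding protein that blocks let-7 microRNA maturation. KIT and STRA8 are background markers of spermatogonia that have begun to differentiate.

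In the mouse genome (GRCm39) Gfra1 (ENSMUSG00000025089) lies on chromosome 19 from 58223212 to 58444346 on the minus strand, Ret (ENSMUSG00000030110) on chromosome 6 from 118128706 to 118174769, and Lin28a (ENSMUSG00000050966) on chromosome 4 from 133730641 to 133746173. The opossum bulk tables place GFRA1 (ENSMODG00000009606) on chromosome 1 from 93798371 to 94097237 on the plus strand, RET (ENSMODG00000001212) on chromosome 1 from 58830748 to 58987616, and LIN28A (ENSMODG00000014236) on chromosome 4 from 363819918 to 363846941. The opossum NANOS2 model (ENSMODG00000048699, chromosome 4, 397104926 to 397105318) is short, and the mouse Nanos2 gene (ENSMUSG00000051965) runs from 18721325 to 18722887 on chromosome 7. Values below are set side by side under the shared symbols. Each species was counted on its own gene models, so expression and mapping or annotation cannot be told apart in species differences within a class. In the change from spermatogonia to spermatocytes, an effect that scales a gene equally in both classes cancels.

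Cells were clustered within each species and assigned to classes by marker genes, none of which is 1 of the 10. Spermatogonia comprised 969 mouse cells (261, 130 and 578 in replicates 1 to 3) and 398 opossum cells (63 in replicate 1, 212 in replicate 2 and the rest in replicate 3), with median depths of 3504 and 7886 UMIs. The clusters named spermatogonia were clustered a second time, and the class holds the sub-clusters that were neither placed with early meiotic cells nor left unnamed. The unnamed ones were 1 mouse sub-cluster of 370 cells and 2 opossum sub-clusters of 118 and 76 cells. Each had at least 1 marker of another class among its 10 leading genes. In spermatogonia their own marker list summed to 4780 to 5483 CPM (counts scaled to a common total per class and library) in the mouse libraries. It summed to 4866 to 6997 CPM in the opossum libraries, with 25 and 11 of 25 markers found in mouse and opossum and none of those at 0. Markers of the other classes were also present in mouse spermatogonia: the 28 elongating-spermatid markers summed to 432 to 7155 CPM across the 3 mouse libraries, against at least 57.5 and at most 122.97 CPM for the 15 found in opossum, of which 7 were at 0. In mouse Sertoli cells the same 28 markers summed to 25427 to 105683 CPM. The part of these markers in the results below was not tested. The naming was weaker in opossum: no cluster named spermatogonia, spermatocytes, round spermatids or Sertoli cells had a marker of its own class among its 10 leading genes, and the 4 spermatogonial sub-clusters had none either. The 2 spermatogonial clusters rested on 5 and 9 markers and the 3 Sertoli clusters on 3 to 5. The 7 Sertoli markers found summed to 488 to 639.6 CPM in the opossum Sertoli libraries, while the 11 spermatogonial markers, 1 at 0, summed there to between 3559.6 and 4619.65 CPM. In the same libraries the 15 elongating-spermatid markers, 1 at 0, summed to 4548 to 9145 CPM. The 18 spermatocyte markers summed to 872 to 1469 CPM and the 14 peritubular or stromal markers, 1 at 0, to 939 to 1102 CPM. The part of this in the opossum Sertoli levels of GDNF, ID4, RET and ETV5 given below was not tested. Mouse replicates 1 and 2 shared 198 cell barcodes with each other and at most 2 with any other library. Mouse replicate 3 and the 3 opossum libraries shared 30 to 43 with one another. The libraries thus fall into 2 sets that partly follow species, and the part of this in the species differences was not tested.

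Spermatogonia had the highest mean level of all 10 cell classes for 7 of 10 members in mouse (GFRA1, RET, ZBTB16, SALL4, NANOS2, NANOS3 and LIN28A) and for 6 of 9 in opossum (GFRA1, RET, ZBTB16, SALL4, ETV5 and NANOS2). These are descriptions without a test, since the classes come from clustering the same cells. In mouse, ID4 was highest in spermatocytes, ETV5 in Sertoli cells and GDNF in peritubular or stromal cells. In opossum, ID4 was highest in Sertoli cells, GDNF in peritubular or stromal cells and LIN28A in round spermatids. Opossum ETV5 in spermatogonia overlapped the level in immune cells. Several of these places rest on few UMIs: NANOS2 in spermatogonia on 4 in mouse and 1 in opossum, mouse GDNF in peritubular or stromal cells on 6.72, opossum SALL4 in spermatogonia on 12.6, and opossum LIN28A in round spermatids on 27.3. With Leiden resolution 2 mouse LIN28A was no longer highest in spermatogonia, nor was opossum ETV5 with at least 500 UMIs per cell.

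**Figure D1:**
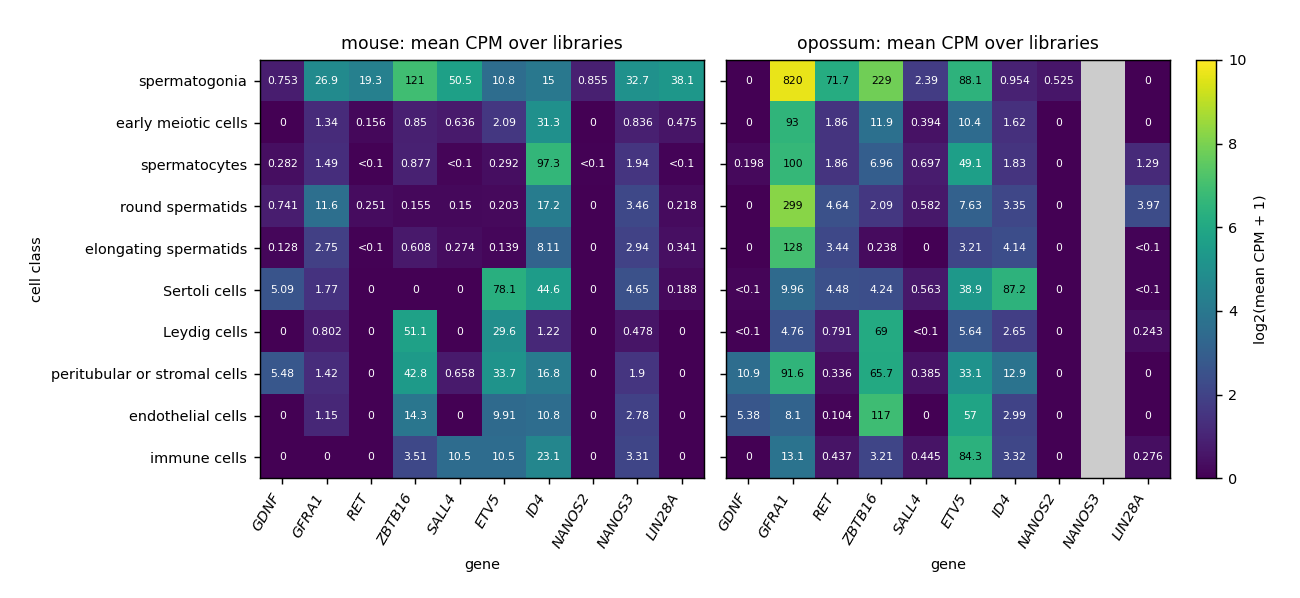
Mean level of each gene (columns) in each of 10 cell classes (rows), in CPM averaged over the libraries with at least 20 cells, coloured on a log2(CPM + 1) scale, mouse left and opossum right; the grey column marks NANOS3, which no opossum feature matched. GFRA1 stands at 820 CPM in opossum and 26.9 CPM in mouse spermatogonia, and stays near or above 91.6 CPM in every opossum germ-cell class and in peritubular or stromal cells.

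GDNF, the ligand, was scarce in all classes. In mouse Sertoli cells it measured 0.760, 4.75 and 9.75 CPM in replicates 1 to 3, on 9.76 estimated UMIs in all; round spermatids, at 0.706 to 0.788 CPM, held 46.6% of its UMIs. Mouse peritubular or stromal cells had 4.33, 0 and 12.1 CPM on 6.72 UMIs. The classes overlapped, and neither level can be ranked above the other. In opossum peritubular or stromal cells GDNF measured 13.2, 12.04 and 7.58 CPM on 74.2 UMIs, and endothelial cells followed with 10.4, 2.99 and 2.76 CPM on 4.81 UMIs. In the 3859 opossum Sertoli cells, a class whose naming was weak as given above, the mean was 0.0952 CPM. The difference between the species in peritubular or stromal cells was 0.85 on the log2 scale (SE 0.73, adjusted p = 0.347, edgeR) and did not pass the test. GDNF had no UMI in opossum spermatogonia and 4.33 UMIs in mouse spermatogonia.

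GFRA1, the ligand-binding co-receptor, was higher in opossum than in mouse spermatogonia. In opossum spermatogonia it measured 941, 692 and 827 CPM, and in mouse spermatogonia 20.3, 32.5 and 28.0 CPM. Every opossum library lay above every mouse library. At least 0.5 estimated counts were seen in 89.9% of opossum spermatogonia (358 of 398; 95% exact binomial interval 86.6 to 92.7%) and in 5.78% of mouse spermatogonia (56 of 969; 4.39 to 7.44%), where the interval covers counting error only. With each cell thinned to 1000 UMIs the shares were 45.7% and 1.86%. Somatic classes thinned alike lay between 0.553% (Leydig cells) and 1.92% (Sertoli cells) in opossum, with peritubular or stromal cells above them at 6.66%, and at most at 0.454% (Sertoli cells) in mouse. Unthinned, the shares in Leydig cells, the opossum class with the lowest GFRA1 level, were 0.860% at a median of 2329 UMIs in opossum and 0.377% at 3955 UMIs in mouse.

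Opossum GFRA1 was also measured along the whole germ line. Round spermatids had 327, 200 and 371 CPM, below every spermatogonial library and above every library of the next class. Elongating spermatids had 102, 135 and 148 CPM, spermatocytes 99.7, 112 and 87.9 CPM, and early meiotic cells 110, 93.9 and 75.0 CPM, and these neighbours overlapped. Opossum peritubular or stromal cells had 182, 45.6 and 47.5 CPM, where replicate 1 stood above the other two. In mouse, round spermatids came next after spermatogonia for GFRA1, at 8.05, 4.86 and 21.99 CPM, overlapping spermatogonia, whereas mouse spermatocytes held 0.299, 0.628 and 3.56 CPM. Because round spermatids were numerous, they held 67.2% of all mouse GFRA1 UMIs in named classes and spermatogonia 13.1%; in opossum spermatogonia held 37.1%, elongating spermatids 21.6% and round spermatids 19.6%.

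RET, the signalling receptor, was found mainly in spermatogonia in both species. Mouse spermatogonia had 19.2, 29.2 and 9.43 CPM, and the next mouse class, round spermatids, at most 0.471 CPM. Opossum spermatogonia had 59.7, 48.1 and 107 CPM. The lowest opossum library lay above the highest mouse library. Spermatogonia held 79.7% of mouse and 62.1% of opossum RET UMIs, and opossum Sertoli cells held 14.6% of the opossum ones at 5.03, 8.42 and 0 CPM.

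Among the transcription factors, ZBTB16 was the member closest in level between the species. It measured 114, 131 and 119 CPM in mouse spermatogonia and 211, 226 and 250 CPM in opossum spermatogonia, again without overlap. It was not restricted to germ cells. Opossum endothelial cells had 92.8, 69.8 and 187 CPM and opossum Leydig cells 58.5, 43.95 and 104 CPM, while mouse Leydig cells had 92.0, 43.2 and 18.1 CPM. In mouse Sertoli cells ZBTB16 had no UMI.

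SALL4 measured 46.0, 37.7 and 67.8 CPM in mouse spermatogonia and 2.99, 4.19 and 0 CPM in opossum spermatogonia, the latter on 12.6 UMIs. All mouse libraries lay above all opossum libraries. ETV5 had the reverse order, at 15.0, 11.4 and 5.92 CPM in mouse and 84.0, 76.8 and 103 CPM in opossum spermatogonia. Outside spermatogonia, mouse ETV5 was found in Sertoli cells at 36.2, 47.2 and 151 CPM, where replicate 3 stood apart, in peritubular or stromal cells at 35.5, 24.2 and 41.5 CPM and in Leydig cells at 28.4, 19.2 and 41.1 CPM. Opossum ETV5 was likewise found in several classes: immune cells at 111, 71.8 and 70.4 CPM, endothelial cells at 59.3, 67.9 and 43.8 CPM, and spermatocytes at 51.9, 49.8 and 45.5 CPM.

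ID4, the mouse stem-cell marker, was nearly absent from opossum spermatogonia at this depth. It measured 0, 2.86 and 0 CPM there, on 5.86 UMIs from replicate 2 alone, against 23.02, 10.8 and 11.002 CPM in mouse spermatogonia. Mouse spermatocytes had more, at 111, 79.4 and 102 CPM, without overlap with any other mouse class. In opossum, spermatocytes had 0.681, 2.85 and 1.97 CPM and Sertoli cells 121, 91.5 and 49.5 CPM. Thus spermatocytes held 79.9% of mouse ID4 UMIs, and Sertoli cells held 82.5% of opossum ID4 UMIs.

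Of the RNA-binding members, LIN28A was higher in mouse than in opossum spermatogonia. It measured 28.0, 14.6 and 71.7 CPM in mouse spermatogonia, where replicate 3 was highest, and had no UMI in opossum spermatogonia. Against the limit of 3 counts over the 3 opossum libraries, 0.747 CPM, the mouse level was at least 66.2-fold higher, and at least 34.3-fold without mouse replicate 3. The deposited counts were mostly not whole, and 1.66% to 6.49% of the entries stored per library were 0. Which step set entries to 0 is not known, nor how many of them belong to the genes named here. "No UMI" and the bounds given here therefore hold for the deposited counts, and the bounds cover counting error only. Opossum LIN28A was found at 3.35, 4.53 and 4.03 CPM in round spermatids on 27.3 UMIs. NANOS3 measured 40.8, 42.9 and 14.4 CPM in mouse spermatogonia. The next mouse class, Sertoli cells, had 1.43, 12.5 and 0 CPM, on 4.43 UMIs. By UMIs, round spermatids held 35.0% of mouse NANOS3, spermatocytes 24.1%, spermatogonia 22.7% and elongating spermatids 15.3%. NANOS2 had 2.57, 0 and 0 CPM in mouse and 0, 0 and 1.58 CPM in opossum spermatogonia, too few UMIs for a comparison.

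Members were also counted cell by cell, each from 0.5 estimated counts upwards. In mouse 56.8% of spermatogonia had none detected (550 of 969, median 2959 UMIs) and 24.3% had 1. In opossum 4.27% of cells had none (17 of 398, median 2075 UMIs), 30.9% had 1 and 33.2% had 2. Mouse cells with more members detected were deeper, up to a median of 8189 UMIs in the 6 cells with 6 members. In opossum the order was not steady, with medians of 10975 UMIs in the 80 cells with 3 members, 8828 in the 41 with 4 and 13102 in the 5 with 5. These shares do not compare the species, since the depths were not matched, 10 members were counted in mouse and 9 in opossum, and GFRA1 alone was detected in 358 of the 398 opossum cells.

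The first question between species was which members differed in spermatogonia. Of the 7 members that passed the filter on low counts, 3 were higher in opossum and 3 lower (edgeR quasi-likelihood test on sums per library, adjusted p under 0.05 over all genes tested and at least 1 on the log2 scale). Among all 6746 matched genes tested, 58.9% were called, 26.1% higher and 32.8% lower, with a median of -0.16, so the count for the members, with a median of 0.71, is to be read against a background in which most genes differed. GFRA1 was higher in opossum by 4.78 (SE 0.30, adjusted p = 3.1e-06), ETV5 by 2.84 (SE 0.41, adjusted p = 0.000182) and RET by 1.79 (SE 0.47, adjusted p = 0.00672). SALL4 was lower by -4.21 (SE 0.55, adjusted p = 9.5e-05) and ID4 by -3.61 (SE 0.84, adjusted p = 0.00324). LIN28A was called lower, with an adjusted p of 0.000178 and the bound given above. In opossum spermatogonia SALL4, ID4 and LIN28A had 12.6, 5.86 and 0 UMIs, so they passed the filter through the mouse libraries. A call higher in opossum was not open to them, and nothing is read from the split of 3 higher and 3 lower. ZBTB16 was higher by 0.71 (SE 0.23, adjusted p = 0.0178), under the fold required. GDNF and NANOS2 did not pass the filter, and NANOS3 could not be compared.

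**Figure D2:**
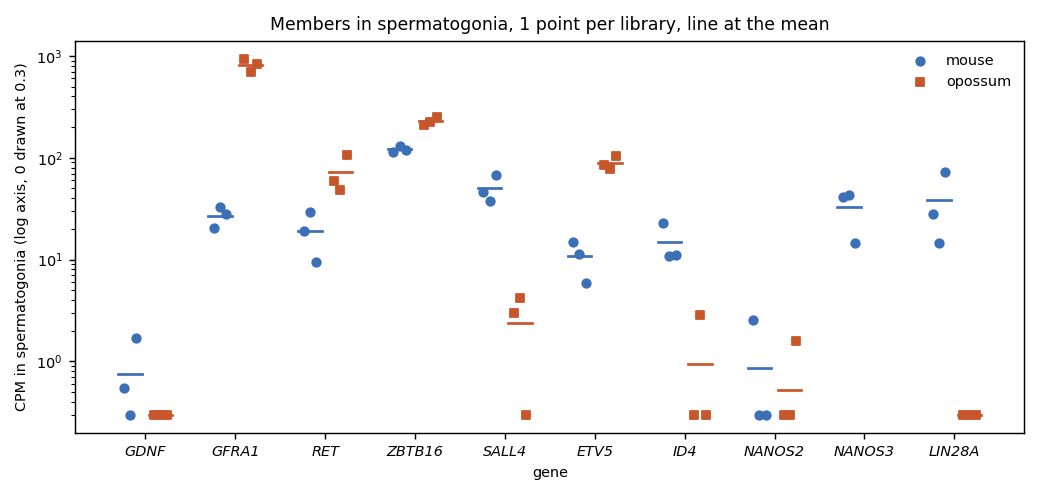
Level of each gene in spermatogonia in CPM on a log axis, with values of 0 drawn at 0.3, for the 3 mouse (circles) and 3 opossum (squares) libraries; the short lines are means. The libraries of the 2 species do not overlap for GFRA1, RET, ZBTB16, SALL4, ETV5, ID4 or LIN28A.

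Differentiation markers in the class were also set side by side, without a test. KIT measured 58.3, 57.3 and 159 CPM in mouse and 171, 155 and 212 CPM in opossum spermatogonia, with overlap. STRA8 measured 356, 291 and 190 CPM in mouse and 16.6, 18.5 and 12.2 CPM in opossum. The part of these differences in the member differences was not tested. KIT and STRA8 are also among the markers that named the class. Opossum sub-cluster 9 (37 cells), with STRA8 among its leading genes, was placed with early meiotic cells. Its marker scores were close, at 0.167 for spermatogonia and 0.229 for spermatocytes. The unnamed sub-clusters were then given the class that their marker scores named. The mouse one of 370 cells joined spermatogonia, and the opossum ones joined early meiotic cells, so opossum spermatogonia stayed as they were. The counts of calls stayed at 3 higher and 3 lower.

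The second clustering separated spermatogonia further, and in mouse most members were highest in 1 sub-cluster. Mouse sub-cluster 8 (149 cells, median 5168 UMIs, led by GLIS3, CCND2 and EGR4) had GFRA1 at 110 CPM, RET at 69.6, NANOS3 at 110, ETV5 at 41.4, ZBTB16 at 354 and SALL4 at 142 CPM. In the other 3 spermatogonial sub-clusters GFRA1 was between 0.887 and 5.22 CPM, RET between 0 and 0.528, NANOS3 between 0 and 7.58 and ETV5 between 0 and 2.13 CPM. KIT had the reverse order, at 19.8 CPM in sub-cluster 8 and 106 to 151 CPM in the others. Unlike the members, KIT and CCND2 were not left out of the clustering, so they may have shaped these sub-clusters. LIN28A was less uneven, at 75.2 CPM in sub-cluster 8 and 48.8, 41.8 and 11.5 CPM in the others. Sub-cluster 7 came almost wholly from mouse replicate 3 (153 of 155 cells). By library, GFRA1 in sub-cluster 8 was 67.8, 145 and 158 CPM and RET 68.6, 156 and 54.4 CPM. These are clusters of the same cells, so the values are a description.

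Among the 4 opossum sub-clusters kept as spermatogonia, number 5 had the highest GFRA1, RET and ETV5, but GFRA1, ETV5 and ZBTB16 were also found in others. Unnamed opossum sub-cluster 3 had more GFRA1, at 1076 CPM. RET measured 237 CPM in sub-cluster 5 (98 cells, median 7863 UMIs, RET itself among the leading genes) and had no UMI in the other 3. KIT was the mirror image, with no UMI in sub-cluster 5 and 151, 427 and 239 CPM in sub-clusters 2, 7 and 8. Unlike the members, KIT was not left out of the clustering, so it may have shaped these sub-clusters. GFRA1 was found in all 4: 958 CPM in sub-cluster 5, 873 in sub-cluster 2 (178 cells), 262 in sub-cluster 7 (68 cells) and 861 CPM in sub-cluster 8 (54 cells). ETV5 was 179 CPM in sub-cluster 5 and 174 in sub-cluster 7, but 48.8 in sub-cluster 8 and 4.19 CPM in sub-cluster 2. ZBTB16 lay between 333 and 346 CPM in sub-clusters 5, 7 and 8 and at 69.9 CPM in sub-cluster 2. These levels are pooled over libraries, which gave unlike shares of the cells. The order of close values, GFRA1 in sub-clusters 5, 2 and 8 and ETV5 in 5 and 7, is therefore not settled. By library, RET in sub-cluster 5 was 181, 265 and 300 CPM, on 18, 39 and 41 cells.

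**Figure D3:**
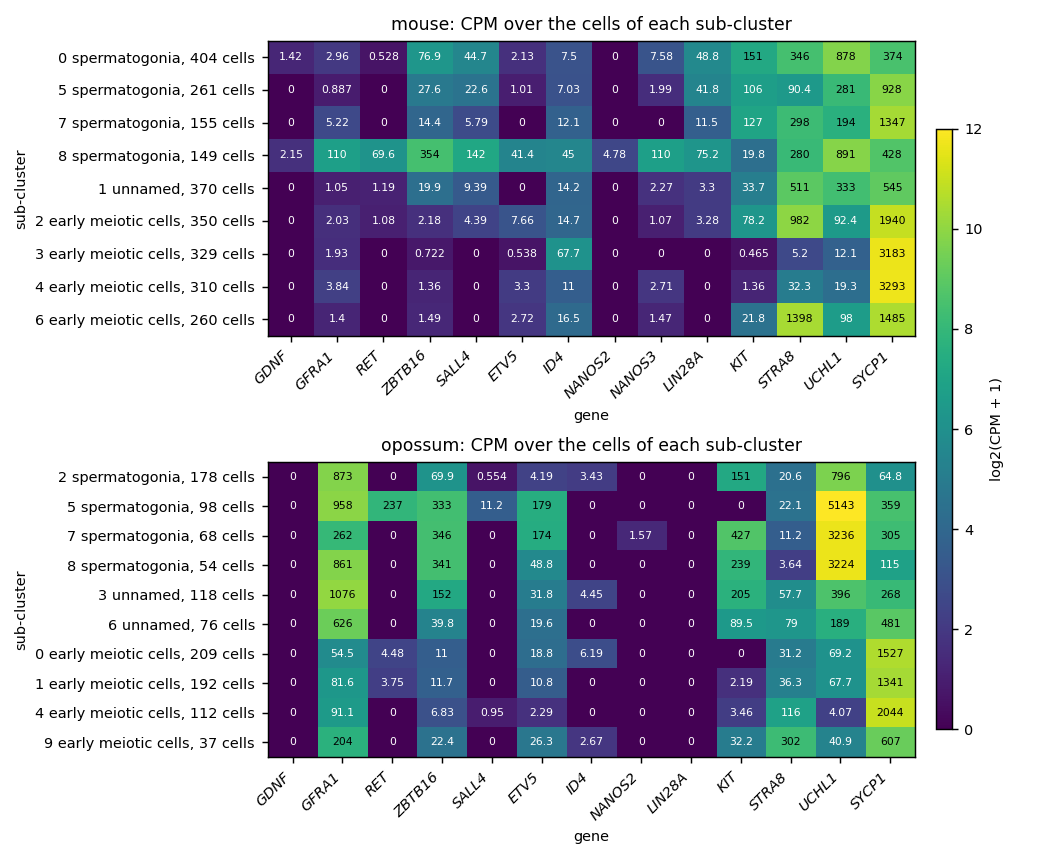
Level in CPM, over all cells of each sub-cluster (rows), of the 10 genes and of KIT, STRA8, UCHL1 and SYCP1 (columns), coloured on a log2(CPM + 1) scale, for mouse (top) and opossum (bottom). In mouse 1 row, sub-cluster 8, carries GFRA1, RET, NANOS3 and ETV5 together; in opossum RET stands in sub-cluster 5 while GFRA1 is at 262 CPM or more in all 4 spermatogonial rows.

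Cells were also set apart by GFRA1 itself. The 56 mouse spermatogonia with a GFRA1 count held RET at 97.9 CPM, ETV5 at 69.8, ZBTB16 at 319 and CCND2, a cyclin, at 348 CPM. The 913 without 1 held RET at 8.13, ETV5 at 5.03, ZBTB16 at 101 and CCND2 at 48.9 CPM. SALL4, NANOS3 and ID4 were likewise higher in the cells with GFRA1, at 132, 80.4 and 70.2 CPM against 50.2, 22.9 and 11.2 CPM, whereas LIN28A was lower there, at 38.5 against 50.3 CPM. KIT was 29.1 and 117 CPM in the same 2 sets, whose median depths were 5223 and 3429 UMIs. In opossum the 358 cells with GFRA1, at a median of 8426 UMIs, held RET at 63.6 CPM, detected in 49 cells. The 40 without, at a median of 4278 UMIs, held RET at 19.1 CPM, detected in 1 cell. ETV5 and ZBTB16 had the reverse order, at 79.2 and 161 CPM and at 223 and 249 CPM.

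Spermatogonia were also split by whether a cell held a count of a differentiation gene. In opossum replicates 2 and 3, RET was 17.1 and 6.41 CPM in cells with KIT or STRA8 and 113 and 201 CPM in the 79 and 64 cells with neither. Replicate 1, with 13 such cells, went the other way at 66.5 and 18.99 CPM. Opossum ETV5 was higher without these genes in all 3 libraries, at 136, 116 and 122 CPM against 75.3, 57.9 and 83.9 CPM. In mouse, where 6 differentiation genes were used and CCND2 is among them, GFRA1 and RET were higher in the cells with at least 1 of them in all 3 libraries. The split rests on detection, and the cells with these genes were deeper in every mouse library, at medians of 5708, 2748 and 3447 UMIs against 3520, 2225 and 2747, and in opossum replicates 1 and 2, at 21895 and 9477 against 10913 and 8444 UMIs, but not in opossum replicate 3, at 4669 against 5075. The part of depth was not tested.

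Genes whose level over all libraries and classes was most like that of GFRA1 were named in each species, with no account of shared function. In mouse, over 28 library-by-class points, they were NTRK3 (Pearson r = 0.911), ASXL3 (0.863), NPFFR1 (0.819), AK4 (0.818) and KHDRBS2 (0.817), and RET reached 0.715. In opossum, over 30 points, they were ADAL (0.877), ATPAF2 (0.872), ELAVL2 (0.857), BRCA1 (0.850) and ENSMODG00000032687 (0.849), with RET at 0.659. Points of 1 library share its depth, and ELAVL2 is among the markers used to name spermatogonia.

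The pathway lists gave further contrasts in spermatogonia. Of the 16 genes in the families of the members, 5 were tested, with 1 higher in opossum (ID3) and 2 lower (NANOS1 and NRTN), and a median of 0.70. Over all genes 58.9% were called in this comparison (26.1% higher and 32.8% lower), against which this count and those of the next lists are to be read. ID3, a relative of ID4, measured 29.5, 20.8 and 35.9 CPM in opossum and 4.45, 0 and 6.29 CPM in mouse. Here opossum libraries were all higher, while NANOS1 had 34.6, 43.5 and 44.4 CPM in mouse and 1.497, 1.96 and 3.15 CPM in opossum. NRTN, a ligand related to GDNF, measured 39.9, 62.4 and 12.4 CPM in mouse and 6.15, 3.70 and 2.86 CPM in opossum.

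Of 25 further genes of undifferentiated spermatogonia, 11 were tested, with 2 higher and 5 lower in opossum and a median of -0.19. PIWIL4, a PIWI protein of prospermatogonia, measured 190, 201 and 242 CPM in opossum and 7.05, 8.49 and 9.73 CPM in mouse (log2 difference 4.42, SE 0.30, adjusted p = 3.7e-06, edgeR). The integrin ITGA6 measured 158, 115 and 167 CPM in opossum and 16.5, 23.1 and 21.8 CPM in mouse. Both were without overlap. EGR4, a zinc-finger factor, measured 71.0, 63.7 and 60.8 CPM in mouse and had no UMI in opossum, at least 87.1-fold lower. POU3F1 measured 56.9, 80.8 and 63.9 CPM in mouse and 0.748, 1.96 and 1.58 CPM in opossum, and MCAM 40.4, 23.1 and 45.1 CPM in mouse and 1.89, 0 and 0 CPM in opossum. Of 15 niche genes 4 were tested and 2 were lower in opossum, the receptors FGFR2 and FGFR1. FGFR2 measured 44.95, 53.3 and 66.1 CPM in mouse and 0, 1.09 and 0 CPM in opossum, and FGFR1 23.5, 8.63 and 21.98 CPM in mouse and 2.96, 2.55 and 10.1 CPM in opossum.

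The comparison was repeated in spermatocytes and in somatic classes that held members. In spermatocytes all 4 tested members were called, where 71.3% of 8046 genes were called (35% higher and 36.3% lower). ETV5 was higher in opossum by 6.42 (SE 0.51, adjusted p = 5.7e-06), GFRA1 by 5.33 (SE 0.71, adjusted p = 8.5e-05) and ZBTB16 by 2.13 (SE 0.62, adjusted p = 0.0101), and ID4 was lower by -6.62 (SE 0.55, adjusted p = 6.4e-06, all edgeR). Without opossum replicate 3 the ZBTB16 difference was 1.67 and no longer called. In mouse spermatocytes ETV5, GFRA1 and ZBTB16 rested on 15.7, 62.5 and 40.9 UMIs, and in opossum spermatocytes ID4 rested on 16.4. ETV5 and ID4 passed the filter through the species where they were higher, so a call in the other direction was not open to them. In Sertoli cells neither of the 2 tested members was called, where 42.8% of genes were (22.4% higher, 20.4% lower): ETV5 differed by -1.17 (SE 0.56, adjusted p = 0.114) and ID4 by 0.69 (SE 0.56, adjusted p = 0.343). Neither had an unadjusted p under 0.05 with edgeR, and DESeq2 called ETV5. In peritubular or stromal cells 1 of 5 was called, GFRA1 at 5.67 (SE 1.04, adjusted p = 0.0016), where 51.4% of 7142 genes were called (25.8% higher, 25.6% lower). Mouse GFRA1 rested there on 1.73 UMIs, so the gene passed the filter through the opossum libraries and a lower call was not open to it. The size is poorly fixed, and opossum replicate 1 stood above the other opossum libraries, as given above. At 2000 UMIs per cell GFRA1 no longer passed the filter there, and without mouse replicate 3 ZBTB16 was called as well, at 1.10.

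Next, the change from spermatogonia to spermatocytes was compared between species in 1 model. The count of members called was 6 of 7, 5 in the direction of opossum and 1 in that of mouse, where 58.3% of 8059 genes were called (32% towards opossum, 26.3% towards mouse). ETV5 measured 49.1 CPM in opossum spermatocytes and 0.292 CPM in mouse spermatocytes (interaction 3.62, SE 0.51, adjusted p = 8.6e-05, edgeR). ID4 was higher in spermatocytes than in spermatogonia in mouse, 97.3 against 15.0 CPM, and 1.83 against 0.954 CPM in opossum (-2.99, SE 0.91, adjusted p = 0.0133); without opossum replicate 2 its value was 1.06 and not called. The calls for LIN28A and SALL4 rest on opossum spermatogonia with 0 and 12.6 UMIs, and those for LIN28A, SALL4 and RET on mouse spermatocytes with 2.16, 3.27 and 2.37 UMIs, so that their sizes are poorly fixed. LIN28A and SALL4 passed the filter on low counts through mouse spermatogonia, so nothing is read from their direction. RET (2.47, SE 0.93, adjusted p = 0.0375) and ZBTB16 (1.41, SE 0.49, adjusted p = 0.0271) lost their calls under several alternatives given in the closing section. GFRA1 differed by 0.77 (SE 0.54, adjusted p = 0.235) and was not called, so its difference between the classes was not shown to differ between species; it was called, at 1.02 to 1.45, with 500 or 2000 UMIs per cell, Leiden resolution 2 or each library clustered alone, and at 1.86 without mouse replicate 3. Under total-count scaling the median of all genes moved from 0.27 to 0.99, and the call for ID4 was lost (-2.18), so the calls are relative to the main scaling. In spermatocytes the same scaling moved the median from -0.05 to 0.65 and the calls over all genes from 2817 higher and 2919 lower to 3284 and 2145.

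The course over ages was followed in bulk opossum testis, in TPM, transcript abundance scaled for gene length and library total. In bulk tissue fewer cells of a type and less RNA per cell cannot be told apart. GDNF measured 4.596 and 3.55 TPM at 1 month, 0.365 to 1.05 TPM at 2 months, 0 to 0.266 at 3 months, 0.0650 to 1.24 at 4 months, and 0 to 0.494 TPM (median 0.258) in adults. Both libraries of 1 month lay above every later library. At 2 months it was lower than at 1 month by -1.47 on the log2(TPM + 1) scale (SE 0.31, adjusted p = 0.00444, limma with age and library kind as terms), the single member called in that step of the 7 tested, where 11.1% of 19300 genes were called (7.22% higher, 3.88% lower). The call was lost without 1 month replicate 1 (-1.32). In adults against 1 month it was lower by -1.96 (SE 0.24, adjusted p = 4e-06). Summed peritubular or stromal markers had the same order, 2427 to 3360 TPM at 1 month, 582 to 1512 at 2 months and 128 to 954 in adults, with 1 of 14 markers at 0 at 1 month, and their part in the fall of GDNF was not tested.

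**Figure D4:**
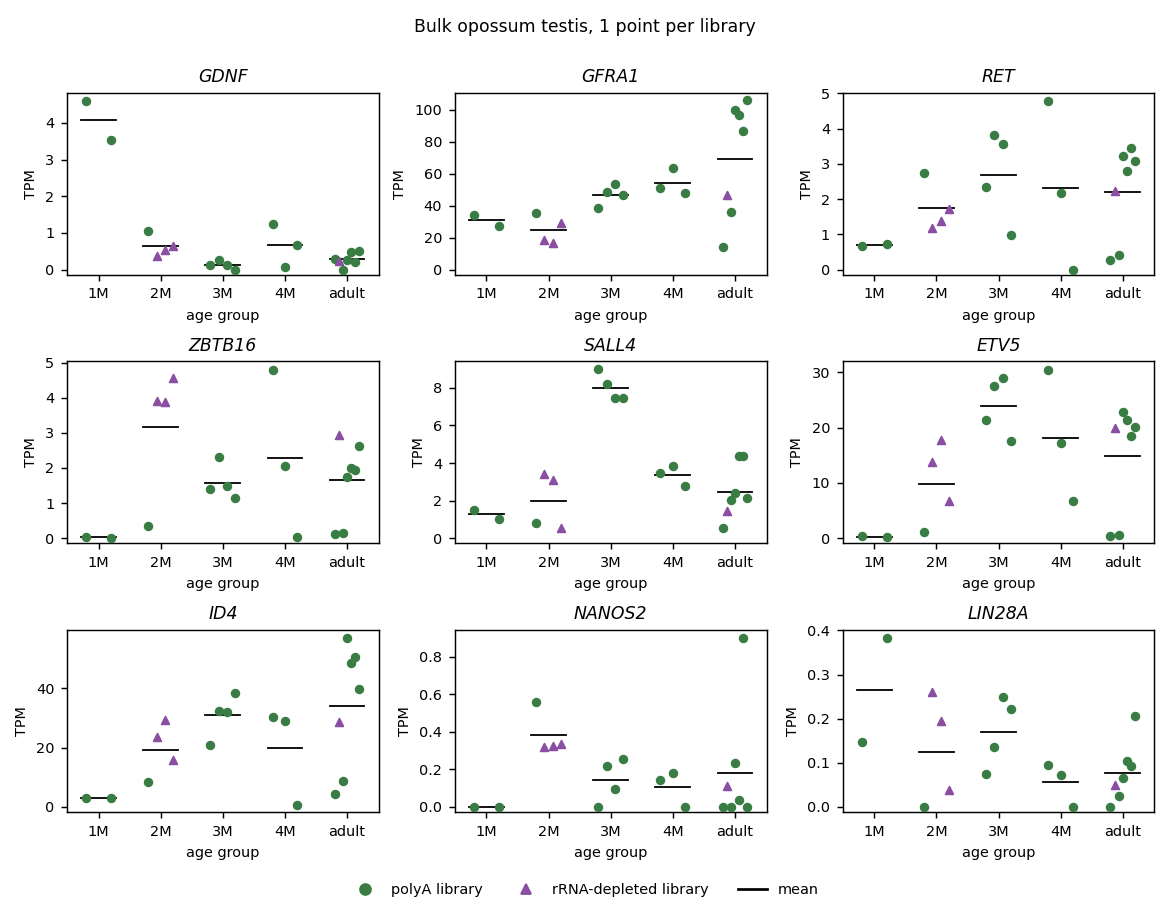
TPM of the 9 named genes in each of the 20 bulk opossum libraries by age group, circles for polyA and triangles for rRNA-depleted libraries, lines at the group means. GDNF is at 3.55 and 4.596 TPM at 1 month and at most 1.24 TPM later; SALL4 is between 7.44 and 8.99 TPM at 3 months and at most 4.38 TPM at every other age.

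SALL4 was highest at 3 months. It measured 1.47 and 1.05 TPM at 1 month, 0.828, 3.40, 3.11 and 0.522 at 2 months, 8.99, 8.19, 7.45 and 7.44 at 3 months, 3.48, 3.87 and 2.75 at 4 months, and 0.532 to 4.38 TPM (median 2.17) in adults. All 4 libraries of 3 months lay above all others. The rise from 2 to 3 months was 1.83 (SE 0.53, adjusted p = 0.0189, limma), the single member called of 7, where 23% of genes were called (15% higher, 8.04% lower). It was not called without 2 month replicate 1, at 1.115, when that age rests on rRNA-depleted libraries alone. Spermatogonial markers summed to 666 to 852 TPM at 2 months and 697 to 919 TPM at 3 months. At the same ages spermatocyte markers summed to 213 to 1991 and 5136 to 5846 TPM. Round spermatid markers summed to 4.24 to 116 and 896 to 1183 TPM, and elongating spermatid markers to 43.9 to 540 and 5212 to 9014 TPM. The part of these lists was not tested. From 3 to 4 months SALL4 differed by -1.05 (SE 0.43, adjusted p = 0.521) and was not called.

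ETV5 and ID4 were low at 1 month and higher in adults. ETV5 measured 0.377 and 0.223 TPM at 1 month, 1.04, 13.8, 17.8 and 6.63 at 2 months, 21.3, 27.5, 29.0 and 17.6 at 3 months, 30.4, 17.2 and 6.79 at 4 months, and 0.474 to 22.7 TPM (median 20.003) in adults. ID4 measured 3.02 and 2.83 TPM at 1 month, 8.25 to 29.2 at 2 months, 21.0 to 38.6 at 3 months, 30.4, 28.98 and 0.4998 at 4 months, and 4.48 to 56.9 TPM (median 39.9) in adults. For ETV5 all adult libraries lay above both of 1 month, though 2 of them by little. Adults against 1 month gave 2.68 for ETV5 (SE 0.97, adjusted p = 0.0292) and 2.67 for ID4 (SE 0.98, adjusted p = 0.0314, limma), so 3 of 7 members were called with GDNF, where 44.8% of genes were (29.4% higher, 15.4% lower). Without either library of 1 month, or without adult replicate 4, 5 or 6, neither ETV5 nor ID4 was called, and without adult replicate 7 ID4 was not. Spermatocyte markers, 1 of 18 at 0 at either age, summed to 276 to 295 TPM at 1 month and 1024 to 3951 TPM in adults. The 7 Sertoli markers, none at 0, summed to 92.2 to 92.3 TPM at 1 month and 33.5 to 187 TPM in adults. The part of either list was not tested. The median of all genes in that comparison was 0.59 and that of the members 0.98. From 2 to 3 months ETV5 differed by 3.01 (SE 1.10, adjusted p = 0.054) and was not called. In the single cells of adult opossum, ID4 was in Sertoli cells and ETV5 in several classes, so these bulk levels are not levels of spermatogonia.

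GFRA1 was present at every age. It measured 34.2 and 27.2 TPM at 1 month, 35.4, 18.4, 16.5 and 28.9 at 2 months, 38.7 to 53.6 at 3 months, 50.9, 63.4 and 47.7 at 4 months, and 14.0 to 106 TPM (median 86.4) in adults. Adults overlapped all other ages, and the difference from 1 month was 0.98 (SE 0.55, adjusted p = 0.141, limma); without adult replicate 1 it was 1.36 and called. RET measured 0.681 and 0.711 TPM at 1 month, 1.18 to 2.75 at 2 months, 0.967 to 3.81 at 3 months, 4.78, 2.16 and 0 at 4 months, and 0.267 to 3.46 TPM (median 2.80) in adults, with a difference of 0.80 (SE 0.58, adjusted p = 0.257). ZBTB16 measured 0.0462 and 0 TPM at 1 month, 0.338, 3.89, 3.88 and 4.56 at 2 months, 1.14 to 2.31 at 3 months, 4.80, 2.06 and 0.0254 at 4 months, and 0.125 to 2.95 TPM (median 1.95) in adults, with a difference from 1 month to adults of 1.04 (SE 0.53, adjusted p = 0.11); without 4 month replicate 3, which enters the estimate of the spread, it was called at the same size (adjusted p = 0.0493, limma). The highest ZBTB16 and RET libraries were both 4 month replicate 1, and RET was listed at 0 in 4 month replicate 3. NANOS2 and LIN28A stayed under the filter at every age, at up to 0.897 TPM for NANOS2 in an adult library and up to 0.382 TPM for LIN28A at 1 month. NANOS2 was listed at 0 in both libraries of 1 month.

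Between 3 and 4 months 0 of the 7 members were called by limma, and 0% of genes; 1686 of 19300 genes had an unadjusted p under 0.05. Between 4 months and adult again 0 members were called, where 0.0259% of genes were called and 1836 genes had an unadjusted p under 0.05.

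Several members were low together in the same libraries. ETV5, ID4 and ZBTB16 were low in both libraries of 1 month, in 2 month replicate 1, in 4 month replicate 3 except for ETV5 at 6.79 TPM, and in adult replicates 1 and 3. In adult replicates 1 and 3 ETV5 was 0.474 and 0.533 TPM, ID4 4.48 and 8.81 TPM and ZBTB16 0.125 and 0.158 TPM, while the other 5 adult libraries had at least 18.4, 28.6 and 1.74 TPM. These libraries also had few genes detected at 1 TPM or more: 12156 and 12108 at 1 month, 13544 in 2 month replicate 1, 13871 in 4 month replicate 3, and 13166 and 14576 in adult replicates 1 and 3, against up to 16567 elsewhere. Replicate 4 of 2 months also had few, 13692, with ZBTB16 at 4.56 TPM. With adult replicates 1 and 3 and 4 month replicate 3 left out, 6 of 7 members were called in adults against 1 month by limma, while the calls over all 19300 genes rose from 8647 to 11188. The libraries left out were chosen after seeing the data and come from the later ages alone, so nothing is read from that count.

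**Figure D5:**
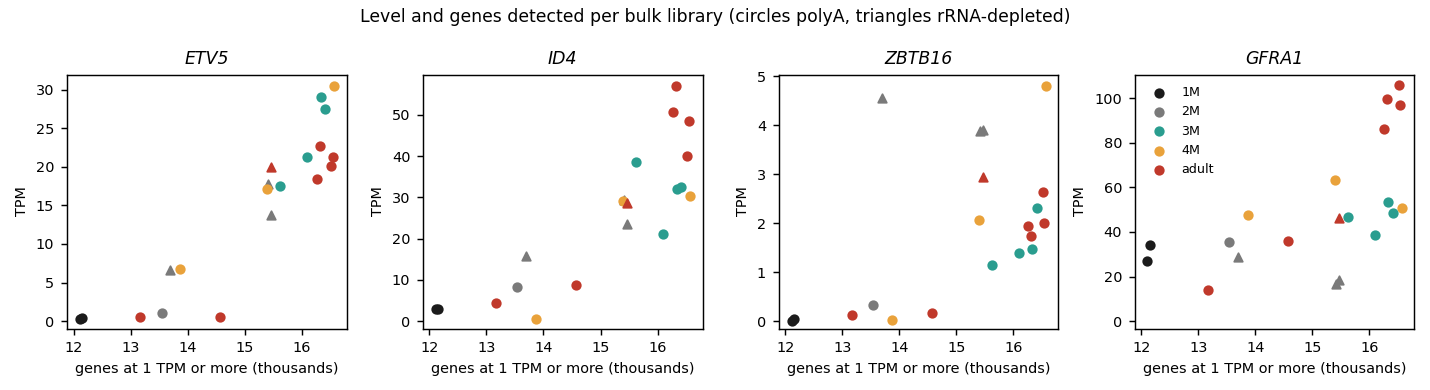
TPM of ETV5, ID4, ZBTB16 and GFRA1 (vertical axes) against the number of genes at 1 TPM or more (horizontal axes, in units of 1000 genes), for the 20 bulk libraries, coloured by age, circles polyA and triangles rRNA-depleted. The libraries of 1 month (12108 and 12156 genes) and adult replicates 1 and 3 (13166 and 14576) lie low for ETV5, ID4 and ZBTB16.

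The same lists were read in bulk adults against 1 month, where 44.8% of all genes were called (29.4% higher, 15.4% lower). Of the family genes 9 were tested, 1 higher (ETV1, by 1.75) and 4 lower: ID3 by -4.58 (SE 0.73, adjusted p = 7.4e-05), ID1 by -2.50, LIN28B by -1.30 and GFRA2, the neurturin co-receptor, by -1.19 (limma). ID3 measured 440 and 455 TPM at 1 month and 4.98 to 28.1 TPM in adults, without overlap. Summed somatic markers did not all move alike. Medians at 1 month and in adults were 92.3 and 125 TPM for Sertoli markers, 155 and 261 TPM for immune markers and 612 and 413 TPM for Leydig markers, with ranges that overlapped. The peritubular or stromal and endothelial lists were lower in adults. The 14 peritubular or stromal markers, 1 of them at 0 at 1 month, summed to between 2427 and 3360 TPM at 1 month and between 128 and 954 TPM in adults. The 11 endothelial markers, none of them at 0, summed to a median of 107 TPM at 1 month and of 29.8 TPM in adults, with ranges that overlapped. Their part in the genes of these lists that were lower in adults was not tested. Of the undifferentiated genes 14 were tested, 3 higher (CDH1 by 2.69, TAF4B by 2.03 and GLIS3 by 1.66) and 2 lower (CXCR4 by -3.96 and DUSP6 by -2.11). CXCR4, the chemokine receptor, measured 518 and 619 TPM at 1 month and 6.33 to 106 TPM in adults. Of the niche genes 12 were tested, 3 higher (FGF8 by 4.62, SE 0.51, adjusted p = 1.5e-06; CSF1R by 3.08; WNT5A by 1.87) and 1 lower (FGF9 by -2.08). FGF8, a fibroblast growth factor, was between 0.132 and 0.422 TPM at 1 month, 0 and 2.19 at 2 months, and 11.4 and 42.8 TPM in adults.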

How the data were processed

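Single-cell matrices held estimated counts (UMI counts per gene and barcode, mostly not whole), as deposited; Cell Ranger 6.0.1 is named in the submitters' processing notes, and what made the counts non-whole is not given in the sources used here. Totals per library were 22710048 to 65263953 UMIs over 10861 to 13451 barcodes. Bulk tables hold, per the file headers, read coverage (a signal), FPKM and TPM per gene, as the authors computed them; the submitters' processing notes name HISAT2 2.2.1, SAMtools 1.12 and StringTie 2.1.4 and, for these opossum libraries, GRCm39, so the opossum build is not given in the sources used here. Depth was 2.90 to 7.12 aligned gigabases, from coverage over FPKM.

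Cells needed 1000 UMIs and 500 genes. In each library the top 8% by Scrublet doublet score were dropped (scanpy 1.11.5), which left 5168 to 8718. These were clustered with leidenalg 0.10.2 (2000 variable genes, 30 components, resolution 1). The members and the family, undifferentiated and niche lists were left out of clustering. The 6 differentiation genes, KIT, STRA8 and CCND2 among them, were not left out, and they are also among the markers that named spermatogonia. Clusters were named from 9 marker lists; a cluster led by another class's markers, or shallow and led by none of its own, stayed unnamed. The clusters named spermatogonia were clustered again, and sub-clusters nearer to meiotic markers became early meiotic cells. The rule that left 1 mouse and 2 opossum sub-clusters unnamed was applied to sub-clusters after values had been seen. CPM are estimated counts of a class in a library, scaled to a common total, with class sums of under 20 cells and sub-cluster values of under 10 cells in a library left out, while splits of spermatogonia by detected genes had no minimum.

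Sums were rounded and tested with edgeR 4.0.16 (TMM, filterByExpr, quasi-likelihood) on 10750 genes matched by symbol, the change from spermatogonia to spermatocytes with the library as a block; log2(TPM + 1) of 19300 genes at 1 TPM or more in at least 2 libraries was tested with limma 3.58.1. A call needed a Benjamini-Hochberg adjusted p under 0.05 and a log2 difference of at least 1. Both tests were also run on simulated data in which few genes changed and the spread was fixed. The comparisons between species called most genes in several classes, so those runs do not show how the tests perform here. Alternatives covered scaling, filters, DESeq2 1.42.0, cell minimums, clustering, pseudocount, FPKM, library kind and left-out libraries. Members and lists were chosen with earlier results of these data known. Of each list, the up to 5 called genes with the lowest adjusted p are named; likeness names the 5 genes of at least 10 CPM in spermatogonia with the highest r to GFRA1. Mouse coordinates are from the GENCODE annotation of GRCm39, opossum coordinates from the bulk tables.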

Additional observations from a re-analysis of the deposited data

Results flagged for a closer look

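ZBTB16 in 2 month replicate 1, the polyA library of that age, was 0.338 TPM against 3.88 to 4.56 TPM in the other 3 libraries, which were rRNA-depleted, so library kind and this library cannot be told apart. Of 19 groups of 4 to 7 libraries examined (1 gene at 1 age each), this was the 1 group with a library that stood apart from the rest; chance gives about 1 in 20.

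For 6 of 7 members tested the change from spermatogonia to spermatocytes differed between the species by the edgeR interaction test, where 58.3% of 8059 genes were called. LIN28A and SALL4 passed the filter on low counts through mouse spermatogonia, so nothing is read from their direction. The differences, in log2 units, were ETV5 (3.62, adjusted p = 8.6e-05), SALL4 (6.84, adjusted p = 0.00158, on 12.6 UMIs in opossum spermatogonia and 3.27 in mouse spermatocytes), RET (2.47, adjusted p = 0.0375), ZBTB16 (1.41, adjusted p = 0.0271) and LIN28A (13.39, a fitted value that depends on counts of 0 and is no bound, adjusted p = 8e-05) towards opossum, and ID4 (-2.99, adjusted p = 0.0133) towards mouse. The calls for RET and ZBTB16 were lost under several alternatives, that for ID4 was lost with scaling by total counts, and ID4 was at 1.06 and not called without opossum replicate 2, and the count fell to 4 with no filter on low counts, counts rounded up, the unnamed sub-clusters kept, or mouse replicate 1, mouse replicate 2 or opossum replicate 3 left out.

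Opossum sub-clusters left without a class also carried members. Sub-cluster 3 (118 cells, median 1428 UMIs, with the endothelial marker FLT1 among its leading genes) had GFRA1 at 1076 CPM and ZBTB16 at 152 CPM. Sub-cluster 6 (76 cells, median 1250 UMIs, with PRM1, a sperm protamine, among its leading genes) had GFRA1 at 626 CPM.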

How the results depend on the processing

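The count of members called in spermatogonia was 6 under all alternatives except at least 2000 UMIs per cell, where it was 5 of 6 tested. Leaving out 1 library at a time gave 3 to 4 in spermatocytes, 1 to 2 in peritubular or stromal cells, 4 to 6 for the change from spermatogonia to spermatocytes, and (lowest without opossum replicate 3) 11 to 13 members highest in spermatogonia over both species; that count was 12 with Leiden resolution 2 and with at least 500 UMIs per cell. In Sertoli cells 3 of 8 tested were called with no filter on low counts (3830 of 10237 genes were), 1 of 2 with DESeq2, and 1 of 3 with at least 500 UMIs per cell or counts rounded up; in peritubular or stromal cells 0 were called at 2000 UMIs. For 2 against 1 month the count was 0 with a pseudocount of 0.1 or polyA libraries only, 2 with no term for library kind (5156 of all genes called, against 2142), 3 without the libraries of fewest genes (5802), and 0 to 1 with single libraries left out (0 without 1 month replicate 1). For 3 against 2 months it was 2 with FPKM or without the libraries of fewest genes, 3 with quantile normalization, and 0 to 2 with single libraries left out (0 without 2 month replicate 1). For adults against 1 month it was 1 with no filter on low values or quantile normalization, 4 with a pseudocount of 0.1 (ZBTB16 added), 6 without the libraries of fewest genes, and 1 to 4 with single libraries left out (1 without either library of 1 month or adult replicate 4, 5 or 6). The same-numbered replicates did not pair (median r of 0.000458 over 29 same-numbered and 0.005 over 124 other pairs of bulk libraries), and with a replicate block 1 member, GDNF, was called in adults against 1 month; it left the counts of the other comparisons as they were, with 6 in spermatogonia. Directions turned for ETV5 in peritubular or stromal cells (0.0321 with no filter, 0.168 with each library clustered alone, -0.223 to 0.227 with a library left out), for the change of GFRA1 with counts rounded up (-0.12) and of ID4 without opossum replicate 2 (1.06, and -3.54 to 1.06 over the libraries left out), and in adults against 1 month under quantile normalization for RET (-0.46) and SALL4 (-0.77); the cause was not tested. The call for RET in the change was lost with no filter, counts rounded up, 2000 UMIs, each library clustered alone or the unnamed sub-clusters kept, at 1.48 to 2.01, and without any 1 library but opossum replicate 2. The call for ZBTB16 was lost with no filter, counts rounded up, each library clustered alone or the unnamed sub-clusters kept, at 0.86 to 1.14, and without mouse replicate 1 or 2 or opossum replicate 3, at 0.83 to 1.06. The alternatives that keep unnamed sub-clusters and that leave out the libraries of fewest genes were chosen after seeing the data. The libraries of fewest genes were taken out at 4 months and in adults alone, where the members were also low, and the libraries of 1 month, with fewer genes still, stayed; of all 19300 genes 11188 were then called in adults against 1 month, against 8647 with all libraries, so nothing rests on that count. The class orders of NANOS2, opossum SALL4 and opossum LIN28A, and of GDNF and opossum ID4 among germ cells, rest on few counts.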
